A study of Drosophila melanogaster with 3 samples.

Results

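Transfer RNA (tRNA) genes were taken as the genes of Ensembl biotype tRNA on the chromosome arms 2L, 2R, 3L, 3R, 4 and X of Drosophila melanogaster, which gave 290 of 17896 annotated genes. Arm 2R carried 98 of them, 3R 79, 3L 48, 2L 41 and X 24, and the small chromosome 4 carried none. The genes were 71 to 186 bp long with a median of 73 bp, and 16 were annotated with 2 exons. A gene was called clustered where another tRNA gene lay within 5000 bp on the same arm. By that rule 214 genes fell into 68 loci of several genes, and 76 genes were lone. The gene's own place was intergenic for 156 genes and an intron of a protein-coding gene for 127, and 7 lay over a coding-gene exon.

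The series is a chromatin immunoprecipitation sequencing (ChIP-seq) experiment on whole embryos of a transgenic fly line, strain CG4820-GFP, which carries the zinc-finger protein CG4820 with green fluorescent protein (GFP) fused to its C terminus. Embryos of both sexes, 0 to 16 hours old, were pooled, the chromatin was sonicated to 200 to 800 bp and the protein was recovered with an antibody against GFP. All 3 biological replicates belong to this 1 group, and all carry the transgene from 1 line, so no untagged or untreated group was compared. A control was part of the peak calling and is not used here.

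The deposited peaks on the dm6 build comprised 26597, 27004 and 26145 candidates in replicates 1, 2 and 3, and 21656 candidates in the pooled list. Candidates are the permissive calls that enter the irreproducible discovery rate (IDR) step, which compares peak ranks between replicates. The optimal list that came out of it held 4876 peaks and was the pooled list down to rank 4876. A peak's signal is its deposited enrichment on its own list's scale, so peaks are compared here by rank or by rank percentile, in which 100 is the highest signal of a list. Sequencing depth is unknown, and the 95% Wilson intervals given for shares cover counting error only. The whole embryo is a mixture of cell types, and a peak with few cells behind it cannot be told apart from one with weak binding in many cells.

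Transfer RNAs carry amino acids to the ribosome and are transcribed by RNA polymerase III (Pol III). Most tRNA genes hold their promoter inside the transcribed sequence, as an A box near the start and a B box further in, which the factor TFIIIC recognises before TFIIIB is placed upstream and recruits the polymerase. Transcription ends at a run of T bases just after the gene. Flies carry many near-identical copies of each tRNA, in clusters and singly, and some lie between or inside genes read by RNA polymerase II.

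The sequences below show where the summit, the base of highest enrichment in a peak, lay relative to the gene. They were read from the RefSeq release 6 genome, the same assembly as dm6, and run 5′ to 3′ along the strand of the tRNA gene. In the first 3, capitals mark the tRNA gene. tRNA:Gln-TTG-2-1 (chrX:3427452-3427741, minus strand) is shown because its peak ranked highest among those with no protein-coding transcription start site (TSS) within 500 bp, and the printed stretch begins at the summit base. tRNA:Tyr-GTA-1-8 (chr3R:8669081-8669380, minus strand) had the highest-ranked peak of all tRNA genes, and its stretch begins 3 bases past the summit. tRNA:Asp-GTC-1-5 (chr2L:8541624-8541871, plus strand) is the gene with an optimal summit inside it, at base 198 of the printed stretch.
Gln-TTG-2-1: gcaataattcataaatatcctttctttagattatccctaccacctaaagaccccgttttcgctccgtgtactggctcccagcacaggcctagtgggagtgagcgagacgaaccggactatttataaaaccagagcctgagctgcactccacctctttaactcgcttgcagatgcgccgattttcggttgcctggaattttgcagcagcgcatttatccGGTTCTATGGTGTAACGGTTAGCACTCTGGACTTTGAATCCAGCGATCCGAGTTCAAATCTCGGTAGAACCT
Tyr-GTA-1-8: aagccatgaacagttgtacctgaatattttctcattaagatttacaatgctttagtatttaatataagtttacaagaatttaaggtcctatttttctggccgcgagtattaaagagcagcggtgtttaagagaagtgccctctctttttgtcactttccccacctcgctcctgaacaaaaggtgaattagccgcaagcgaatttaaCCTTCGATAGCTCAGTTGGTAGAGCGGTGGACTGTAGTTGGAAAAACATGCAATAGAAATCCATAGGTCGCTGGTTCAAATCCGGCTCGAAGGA
Asp-GTC-1-5: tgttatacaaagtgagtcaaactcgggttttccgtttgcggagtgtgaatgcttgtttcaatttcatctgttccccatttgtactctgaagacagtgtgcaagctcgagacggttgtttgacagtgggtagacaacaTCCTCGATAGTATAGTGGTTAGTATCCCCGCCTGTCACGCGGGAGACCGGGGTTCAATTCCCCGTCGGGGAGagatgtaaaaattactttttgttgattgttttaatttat

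The next 2 stretches are shown because their peaks had no protein-coding TSS within 500 bp and their summits lay clear of the tRNA gene, so that the 50 bases to each side of the summit hold none of it. The capital marks the summit base. The window for tRNA:Asn-GTT-1-10 is chr3R:8139366-8139466 on the minus strand, and that for tRNA:Gly-GCC-1-2 is chr2L:2032082-2032182 on the plus strand.
Asn-GTT-1-10: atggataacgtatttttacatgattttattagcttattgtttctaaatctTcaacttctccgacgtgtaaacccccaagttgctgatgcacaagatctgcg
Gly-GCC-1-2: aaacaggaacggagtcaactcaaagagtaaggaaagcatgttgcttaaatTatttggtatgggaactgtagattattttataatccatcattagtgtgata

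Few tRNA genes had an optimal peak, and 10 of the 15 that did had it within 500 bp of a protein-coding TSS. An optimal summit lay within 500 bp of 15 of 290 tRNA genes, or 5.17% (95% Wilson interval 3.16 to 8.36). By the same rule 23.2% of all 17896 genes had one, but a longer gene offers more bases to a summit. Counted from the first base of the gene, which takes length out, 14 tRNA genes (4.83%) and 15.2% of all genes had one. Of all 73-bp intervals along the arms, 3.69% had one as near. Such arm intervals include unmappable sequence, where no peak can be called, which can lower their share. The share among tRNA genes was thus below that of genes in general, and its interval included the share of arm intervals.

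The 15 genes drew on 14 distinct optimal summits. For 10 genes every such summit had a protein-coding TSS within 500 bp, and for the other 5 (1.72% of tRNA genes) at least 1 summit had none. With a limit of 250 bp the split turned round, and 10 genes had a summit without such a TSS. In summits, 9 of the 14 (64.3%) had a protein-coding TSS within 500 bp, against 44.2% of all optimal summits. The 14 summits are few, and this difference was not tested. To split the genes without using the peaks, those off coding-gene exons were divided by a protein-coding TSS within 1000 bp of the gene. With such a TSS, 10 of 77 tRNA genes (13.0%, interval 7.21 to 22.3) had an optimal summit, against 10.7% of arm intervals off coding exons in the same position. Without one, 5 of 206 (2.43%, interval 1.04 to 5.56) had one, against 2.66% of such intervals. Within both classes the interval for tRNA genes included the share of arm intervals.

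**Figure D1:**
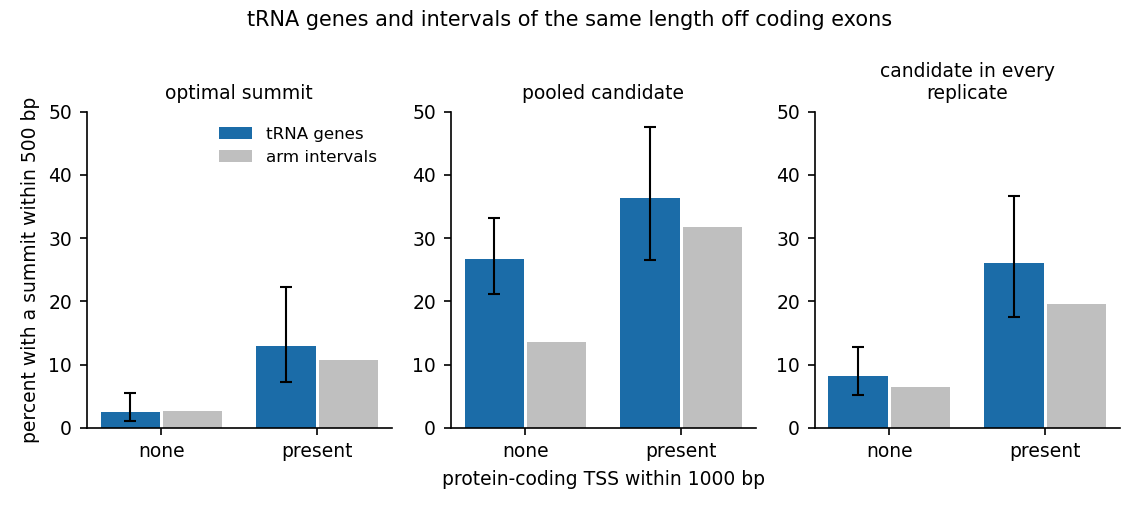
Percent of tRNA genes off coding-gene exons (blue, with 95% Wilson intervals) and of 73-bp arm intervals off coding exons (grey) with a summit within 500 bp, split by a protein-coding TSS within 1000 bp. The bars for optimal summits are 2.43% and 2.66% without such a TSS, while those for pooled candidates are 26.7% and 13.6%.

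The permissive lists gave another picture. A pooled candidate summit lay within 500 bp of 84 tRNA genes (29.0%, interval 24.0 to 34.4), and 67 of these genes had a candidate with no protein-coding TSS within 500 bp. Of all genes 52.0% had a pooled candidate within 500 bp of the gene. From the first base, the counts were 81 tRNA genes (27.9%) against 37.6% of all genes. Of the 73-bp arm intervals 15.3% had one.

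The tRNA share lay clear of that of arm intervals among genes away from coding promoters, and not among those near one. Among tRNA genes off coding exons with no protein-coding TSS within 1000 bp, 55 of 206 (26.7%, interval 21.1 to 33.1) had a pooled candidate, against 13.6% of such arm intervals. With such a TSS it was 28 of 77 (36.4%, interval 26.5 to 47.5) against 31.7%. The wide interval of this smaller class leaves room for an excess there too. Genes of 1 locus share summits, so these intervals are too narrow, and no test of the difference was made. Unmappable sequence among the arm intervals can lower their shares and so widen the difference, by an amount that was not tested. Counted as distinct summits, the sequence within 500 bp of a tRNA gene, 233 kb in all, held 74 pooled summits, or 31.7 per 100 kb (exact Poisson interval 24.9 to 39.8), against 16.2 per 100 kb over the arms. For optimal summits the figures were 14, or 6.00 per 100 kb (3.28 to 10.1), against 3.64. Both densities are set against all bases of the arms, which were not matched for coding TSSs or exons.

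Pooled candidates at tRNA genes away from coding promoters spanned nearly the whole range of ranks, from 1449 to 21183. Of the 57 such summits 5 (8.77%, interval 3.81 to 18.9) reached the optimal list, while 17.6% of the 15425 pooled summits without a protein-coding TSS within 500 bp did. Their median rank percentile in the pooled list was 34.0 (interval 27.3 to 53.5), against 44.2 for those 15425. Both intervals included the value of the whole list. The 17 summits near a tRNA gene that did have a coding TSS within 500 bp stood at a median of 80.7 (interval 63.0 to 86.9), against 65.4 for the 6231 such summits of the whole list, and 9 of the 17 (52.9%, interval 31.0 to 73.8) reached the optimal list, against 34.6%. These intervals too included the values of the whole list.

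**Figure D2:**
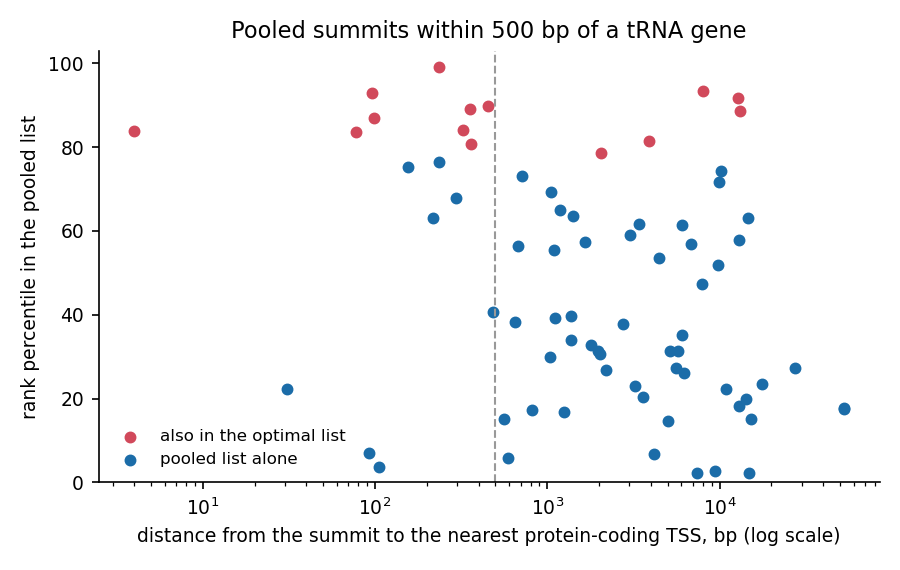
Rank percentile in the pooled list of the 74 pooled summits within 500 bp of a tRNA gene, against the distance to the nearest protein-coding TSS (log scale). The dashed line is at 500 bp, and red points are the 14 summits in the optimal list, of which 9 lie to its left.

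The individual genes with an optimal peak are described from the strongest down, beginning with those away from coding promoters. tRNA:Gln-TTG-2-1 (FBgn0052493; chrX:3427452-3427523, minus strand) is a lone glutamine tRNA gene in an intron of CG12535. Its summit lay 218 bp upstream of the gene's first base and 8066 bp from the nearest protein-coding TSS, with a signal of 244.2 at rank 1449 of 4876. The peak stood at rank percentiles 92.5, 95.4 and 94.9 in replicates 1, 2 and 3. All 3 replicates thus placed it near the top of their lists.

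tRNA:Asn-GTT-1-10 (FBgn0051583; chr3R:8139533-8139606, minus strand) lies in an intergenic locus of 6 tRNA genes. Its summit was 117 bp beyond the gene's end and 12811 bp from the nearest protein-coding TSS, with a signal of 210.8 at rank 1800. In the 3 replicates it stood at percentiles 93.3, 93.3 and 93.9, the narrowest spread among the genes apart from coding promoters. tRNA:Gly-GCC-1-2 (FBgn0011860; chr2L:2031692-2031762, plus strand), a lone intergenic glycine tRNA gene, had its summit 370 bp beyond its end and a signal of 117.2 at rank 4022. Its percentiles were 85.4, 83.2 and 83.8.

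tRNA:Glu-TTC-1-5 (FBgn0011849; chr2R:19727460-19727531, minus strand) lies in a locus of 7 genes for glutamate and initiator methionine tRNAs. Its summit, with a signal of 170.7 at rank 2443, was 176 bp beyond the gene's end and 132 bp from the start of a small nucleolar RNA gene. The percentiles were 90.7, 87.5 and 93.6. tRNA:Ala-TGC-2-1 (FBgn0011879; chr2R:17392215-17392286, plus strand) had the lowest-ranked optimal summit near a tRNA gene, at rank 4633 with a signal of 105.5 and 2052 bp from the nearest coding TSS, that of CG10939. Replicate 3 was the low one here, at percentile 67.7 against 84.1 and 86.8 in replicates 1 and 2.

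Of the genes whose optimal summits all had a coding TSS within 500 bp, tRNA:Tyr-GTA-1-8 (FBgn0012024; chr3R:8669081-8669174, minus strand) had the highest rank. This tyrosine tRNA gene of 2 exons lies in introns of CG8036 and p, and its summit was 209 bp upstream of it and 235 bp from the TSS of CG8036. The signal of 726.0 placed the peak at rank 173, and its percentiles were 99.3, 99.3 and 99.4. In the optimal list it stood at percentile 96.5, and the next of the tRNA genes at 70.3.

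The other genes of this class sat at lower ranks beside promoters of genes of various kinds. tRNA:His-GTG-1-3 (FBgn0050251; chr2R:12334995-12335066, minus strand) had a signal of 235.5 at rank 1528, with the CG8490 TSS 96 bp from the summit. tRNA:Val-CAC-2-5 (FBgn0012003; chr3R:19672277-19672349, minus strand) lies in an intron of Naam, a nicotinamidase gene whose TSS was 455 bp from the summit at rank 2198. tRNA:Leu-TAA-2-1 (FBgn0053536; chr3R:24112964-24113047, plus strand) had a summit at rank 2342, 355 bp from the TSS of CG13605. tRNA:Phe-GAA-1-2 (FBgn0052740; chrX:6744471-6744543, minus strand) had one at rank 2841, 99 bp from the TSS of RpL17, a ribosomal protein gene. In all 4 cases the summit lay outside the tRNA gene, and binding at the coding promoter cannot be told apart from binding at the tRNA gene.

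At 2 places a pair of tRNA genes shared their optimal summits. tRNA:Asp-GTC-1-4 (FBgn0051604; chr2L:8541552-8541623, minus strand) and tRNA:Asp-GTC-1-5 (FBgn0051603; chr2L:8541761-8541832, plus strand) diverge from each other, and the summit at rank 3453, with a signal of 132.4, lay inside the second. It was 326 bp from a TSS of Sema1a, which encodes a semaphorin for axon guidance. Replicates 1 and 3 had candidates 10 and 23 bp from it, at percentiles 86.4 and 78.3, but the nearest of replicate 2 was 202 bp away and outside the gene. A second optimal summit, at rank 3580, lay 237 bp beyond tRNA:Asp-GTC-1-5 and 78 bp from the nearest protein-coding TSS. It had candidates within 17, 46 and 13 bp in replicates 1, 2 and 3, at percentiles 85.4, 88.9 and 81.6. tRNA:Trp-CCA-2-2 (FBgn0050227; chr2R:18639557-18639628, plus strand) and tRNA:Gly-GCC-1-9 (FBgn0011868; chr2R:18639726-18639796, minus strand) shared a summit at rank 3490 that lay 4 bp from the TSS of CG30122. Replicate 1 was lowest there, at percentile 80.8 against 90.0 and 87.1. tRNA:Thr-AGT-1-4 (FBgn0051282; chr3R:16431940-16432013, plus strand), named after its values were seen, had its summit at rank 4176, 363 bp from the TSS of its host CG31279, and again replicate 1 was low, at 72.9 against 86.4 and 83.8.

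**Figure D3:**
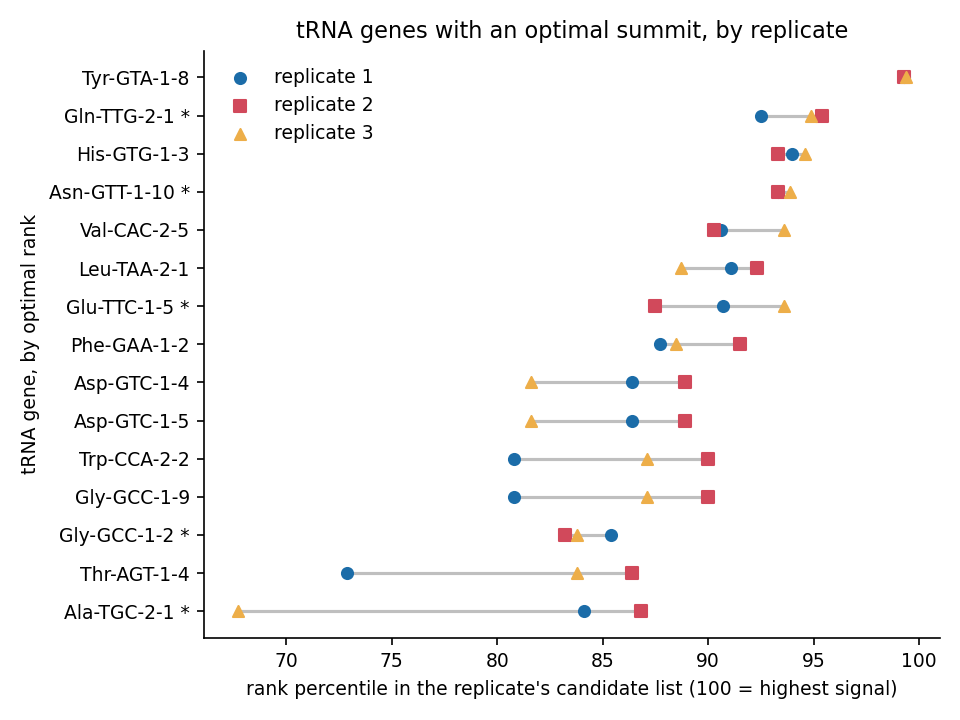
Rank percentile of the highest summit within 500 bp in each replicate's candidate list, for the 15 tRNA genes with an optimal summit, ordered by optimal rank; an asterisk marks a summit with no protein-coding TSS within 500 bp, and grey lines span the replicates. The points lie close together except for tRNA:Thr-AGT-1-4 and tRNA:Ala-TGC-2-1, where 1 replicate is lower; for the aspartate pair they come from different summits.

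tRNA:Gly-GCC-1-9 was the gene just inside, 452 bp from its summit, and tRNA:Leu-CAA-2-2 was just outside at 535 bp. For the distance to a coding TSS, the summit at tRNA:Val-CAC-2-5 was just inside at 455 bp, and the next, at tRNA:Ala-TGC-2-1, was at 2052 bp. The tRNA gene nearest to the optimal list among those outside it was tRNA:Ile-AAT-1-3, with a pooled candidate at rank 5106.

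The 3 replicates gave similar numbers of tRNA genes but not the same genes. Candidates lay within 500 bp of 90, 92 and 104 tRNA genes in replicates 1, 2 and 3, a mean of 95.3 ± 7.57 (SD, n = 3) or 32.9% ± 2.61. Of the 73-bp arm intervals 18.9%, 18.9% and 18.6% had a candidate in the same lists. Replicates 1 and 2 shared 56 genes, 62.2% of the first and 60.9% of the second. Replicates 1 and 3 shared 53 (58.9% and 51.0%), and replicates 2 and 3 shared 52 (of 92 and 104). Over arm intervals the same shares ran from 52.4% to 56.2%.

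A candidate was present in all 3 replicates for 38 tRNA genes (13.1%, interval 9.70 to 17.5), in 2 for 47, in 1 for 78 and in none for 127. Of all genes 42.7% had a candidate in every replicate, and of the arm intervals 7.82% had. Off coding exons and without a protein-coding TSS within 1000 bp, 17 of 206 tRNA genes (8.25%, interval 5.22 to 12.8) had one in every replicate, against 6.42% of arm intervals. With such a TSS it was 20 of 77 (26.0%, interval 17.5 to 36.7) against 19.6%. Both intervals for tRNA genes included the share of arm intervals here, which that for pooled candidates away from coding promoters did not.

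The 38 genes called in every replicate were not all called at 1 place. The summits of highest signal in the 3 lists lay within 100 bp of each other, a limit set after seeing the data, for 13 of the 15 genes with an optimal summit and for 2 of the other 23. The median distance between the outermost of the 3 summits was 63.0 bp in the first class and 289 bp in the second. The 2 exceptions with an optimal summit were the aspartate pair. The spread between the highest and lowest replicate percentile had a median of 3.79 points (largest 19.1) for the 15 genes with an optimal summit and of 32.1 points (largest 75.6) for the other 23. The optimal list selects for ranks that repeat, so these differences are given as a description. The widest case was the pair tRNA:Val-AAC-2-1 and tRNA:Ser-CGA-1-4 in hts, at percentiles 0.865, 49.2 and 76.5, where the summit of replicate 1 lay up to 296 bp from the others. tRNA:Gly-TCC-2-2 followed, with 71.7, 71.8 and 3.02 from summits up to 538 bp apart, that of replicate 1 downstream of the gene and the others upstream. Such spreads compare different peaks and not 1 site.

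Summits lay on both sides of the tRNA genes and inside some of them. Of the 74 pooled summits, 34 (45.9%) lay upstream of the nearest tRNA gene, 28 (37.8%) downstream and 12 (16.2%) inside it. Of the bases within reach, 45.2%, 45.3% and 9.44% fell in these classes. The 12 inside summits were weak, at a median pooled percentile of 31.0 (range 16.8 to 84.1), and 1 of them, at tRNA:Asp-GTC-1-5, reached the optimal list. Of the 14 optimal summits 6 lay upstream, 7 downstream and 1 inside, and none of the other 13 was within 100 bp of the gene.

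**Figure D4:**
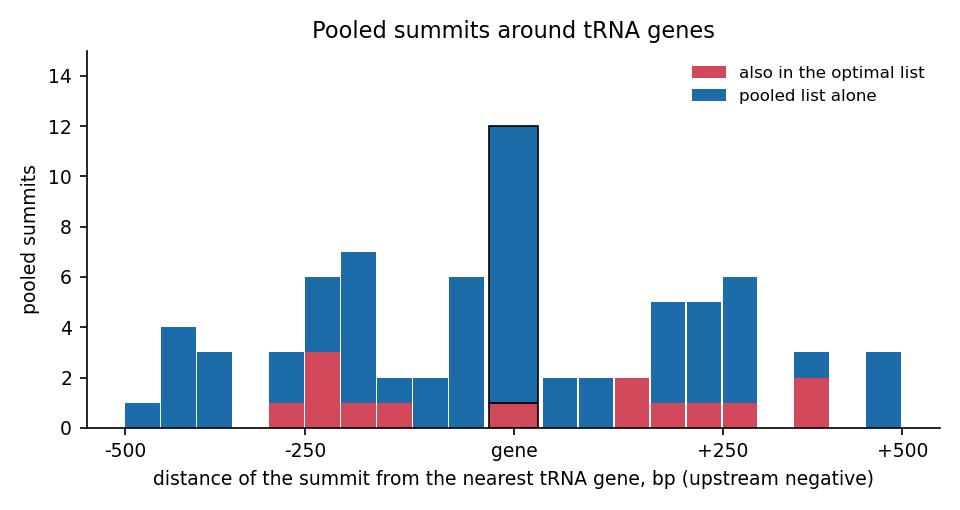
Number of pooled summits by distance from the nearest tRNA gene, in bins of 50 bp, with upstream distances negative and the outlined bar for the 12 summits inside a gene. Red marks the 14 summits in the optimal list, which lie upstream and downstream with 1 inside.

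Clustered and lone genes had peaks at rates whose intervals overlapped. An optimal summit lay near 9 of 214 clustered genes (4.21%, interval 2.23 to 7.80) and 6 of 76 lone genes (7.89%, interval 3.67 to 16.2). Pooled candidates lay near 64 clustered genes (29.9%) and 20 lone genes (26.3%). In summits per 100 kb of sequence within reach, clustered genes had 5.28 optimal and 32.3 pooled, and lone genes 7.33 and 30.6, with overlapping intervals in both lists. By locus, 7 of 68 loci of several genes (10.3%) and 6 of 76 lone genes had an optimal summit, 13 of 144 in all (9.03%). A pooled candidate lay at 34 of 68 loci of several genes, which span more sequence than a lone gene.

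The 5 largest loci held 43 genes and 1 optimal peak between them. The locus of 11 arginine, asparagine, isoleucine and lysine genes at chr2R:6161535-6171759 had pooled candidates near 3 genes, none of them called in replicate 1. The locus of 11 alanine, proline, threonine and valine genes at chr3R:17617761-17631750 had them near 5 genes, with 7, 4 and 6 genes in replicates 1, 2 and 3. In the locus of 7 in ATP8A (chr2R:13430282-13432794), the candidate at tRNA:Ile-AAT-1-3 was the single pooled one. The locus of 7 at chr2R:19725620-19728958 held the optimal peak by tRNA:Glu-TTC-1-5. The arginine and serine locus of 7 at chrX:14014814-14017284 had no pooled candidate. Across these 5 loci, the highest-ranked summit was therefore the one at rank 2443.

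Lone genes with a candidate that stayed outside the optimal list varied in support between replicates. The strongest 5 were tRNA:Ile-AAT-1-9 at pooled rank 6640, tRNA:Pro-CGG-2-3 in not (non-stop) at 6953, tRNA:Leu-TAA-4-1 in jar at 7587, tRNA:Pro-CGG-2-1 in Bx at 8019 and tRNA:Leu-CAG-1-1 at 8302. tRNA:Ile-AAT-1-9 was called in replicate 2 alone. tRNA:Pro-CGG-2-1, whose summit was 216 bp from a coding TSS, stood at ranks 8313, 8588 and 9102, the most even of the 5. tRNA:Leu-TAA-4-1 stood at 8683 and 7330 in replicates 1 and 2 and at 19301 in replicate 3.

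In the optimal list no amino acid family had more than 2 genes. Aspartate (2 of 14) and glycine (2 of 20) had 2 each, and 11 others had 1. Arginine, the largest family with 26 genes, had pooled candidates near 11 genes and none with an optimal summit or a candidate in every replicate. Threonine had 1 gene of 17 with a pooled candidate. The 6 initiator methionine genes had no pooled candidate, although 5 of them had one in a replicate list. Family counts this small, with genes sharing summits, do not separate families, and no test was made.

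**Figure D5:**
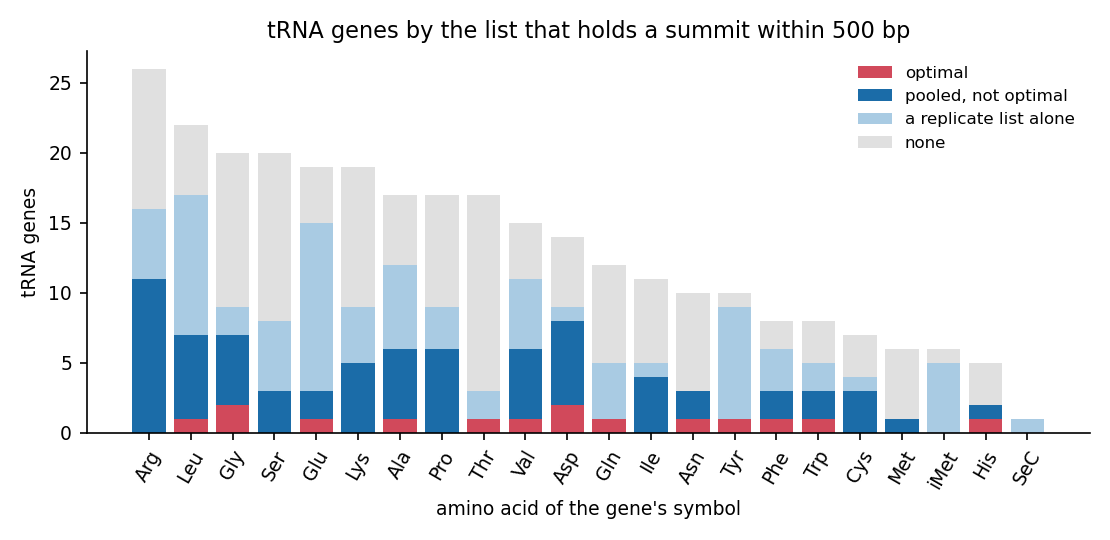
Number of tRNA genes per amino acid of the gene symbol, stacked by the list that holds a summit within 500 bp: optimal, pooled but not optimal, a replicate list alone, or none. Arginine has 26 genes with 11 in the pooled list and 0 in the optimal list.

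Words of the internal promoter were sought in the genes and at the summits. On the gene's own strand, the B box core GTTCGANTC was found in 112 of 290 genes, 6 of them among the 15 with an optimal summit. Its looser form GTTCNANNC, added after seeing the data, was in 271 (93.4%), including all 15. The A box core TGGCNNAG was in the first 30 bases of 67 genes, 2 of them among the 15. Within 30 bp after their end, 277 genes (95.5%) had 4 T bases in a row, 13 of them among the 15. Within 50 bp of the 14 optimal summits near tRNA genes, on either strand, GTTCGANTC was found at 0 and GTTCNANNC at 3, against 0.267% and 3.57% of all 4876 optimal summits. At the 74 pooled summits, GTTCGANTC was found at 4 (5.41%) and GTTCNANNC at 15 (20.3%), against 0.272% and 3.20% of all pooled summits. The A box core was found at 0 of the 14 against 2.87% of all optimal summits. It was at 2 of the 74 (2.70%) against 4.38% of all pooled summits. A run of 4 T was at 12 of the 14 against 89.7%, and at 57 of the 74 (77.0%) against 82.8%. A window that overlaps a tRNA gene holds its letters. Of the 74 pooled summits 12 lay inside such a gene, and windows of summits within 50 bp of one overlap it too. Of the 14 optimal summits 1 lay within 100 bp of a tRNA gene, so at most 1 of the 3 matches there can be its letters.

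Other words were counted in the same way. Counted at the 74 pooled summits and over the whole pooled list on both strands, GAGAG was at 13 (17.6%) against 11.0%, TAATTA at 9 (12.2%) against 7.56%, TATAAA at 10 (13.5%) against 16.4% and TATCGATA at 1 (1.35%) against 1.30%. These matches are descriptions of the letters only. Genes with a sequence of their own and genes with identical copies had shares whose intervals overlapped. Of 52 genes with no identical copy 4 (7.69%) had an optimal summit and 12 (23.1%) a pooled candidate, and of 238 with at least 1 copy 11 (4.62%) and 72 (30.3%) did. With 100 bp of flank on each side, 288 of the 290 genes were unique in the set.

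Other short non-coding RNA genes give a scale for these shares. Small nucleolar RNA genes had optimal summits at 4.46% and pooled candidates at 17.1% of 269 genes, and microRNA genes at 3.46% and 18.8% of 260. Small nuclear RNA genes, most of them read by RNA polymerase II, had them at 18.8% and 34.4% of 32. The 96 genes for 5S ribosomal RNA, which Pol III also transcribes, had 0 in either list. The Wilson interval for 0 of 96 reaches 3.85%, and 3 counts of 96 would be 3.12%. Both figures treat the 96 genes as independent. These genes are near-identical repeats that share reads, so their counts are uncertain and the figures are no firm limit. For pooled candidates the tRNA share was 29.0% (interval 24.0 to 34.4), above those of small nucleolar and microRNA genes. The Wilson intervals of these reached 22.1 and 24.0, so that of microRNA genes ended where the tRNA interval began. For candidates in every replicate the intervals overlapped. They were 9.70 to 17.5 for tRNA, 6.99 to 14.2 for small nucleolar RNA and 7.24 to 14.7 for microRNA genes. The classes were not matched for distance to a coding TSS. No test was made, because genes of 1 locus share summits.

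Among the other Pol III RNA genes, snRNA:U6:96Ab and snRNA:U6:96Ac, copies of the spliceosomal U6 RNA, shared an optimal summit at rank 2987 with a signal of 147.4. It stood at ranks 6594, 3629 and 1608 in the replicates. snRNA:7SKa had a pooled candidate at rank 10372 and RNaseMRP:RNA one at 14137. The third U6 copy, snRNA:7SKb and both 7SL genes had none.

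Some protein-coding genes of the Pol III machinery had peaks at their own promoters. Of 17 genes picked by symbol, 5 (29.4%) held an optimal summit in the 500 bp around a TSS, against 19.9% of all protein-coding genes, and 11 (64.7%) a pooled candidate, against 44.9%. Bdp1 and Brf, which encode subunits of TFIIIB, had signals of 792.7 at rank 139 and 626.8 at rank 232. The Pol III subunit gene Polr3E had a signal of 323.3, and La, whose product binds new Pol III transcripts, one of 166.4. The remaining 12, among them Tbp, Trf, Maf1 and the largest subunit gene Polr3A, had no optimal summit. Subunits of TFIIIC were not among the 17.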

How the data were processed

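ChIP-seq peak lists of 3 biological replicates of 1 group were used, grouped as the labels give them. Per the README files, the authors derived the candidates of a replicate from its own reads and a control, the pooled candidates from the 3 alignments together, and the optimal list from these by IDR. The deposited signal is the authors' enrichment per peak on each list's own scale, and was used only for ranks. For the aligner, peak caller and IDR limit, names and values were not given in the sources. Depth is unknown. The replicates come from 1 fly line.

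The annotation was Ensembl release 115 (BDGP6.54), and bases were read from the RefSeq genome, which is the same assembly. Transposable elements and pseudogenes were left out of the gene counts. Distance ran from the summit (start plus deposited offset) to the closest base of the gene, with a limit of 500 bp, and tRNA loci joined genes within 5000 bp. Arm intervals were all 73-bp windows, unmappable sequence included. The code was tested on made-up peaks with known places and ran in Python 3.11.15 with SciPy 1.17.1, NumPy 2.4.6, matplotlib 3.10.9 and pandas 2.3.3. No p-values were computed. Between any pair of replicates, 0 intervals had equal coordinates and signal.

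The members, lists and words were chosen with earlier results of these data known. Named genes follow a rule: the genes with highest optimal signal apart from a coding TSS (up to 12) and by one (up to 8), any with a summit inside, the 5 largest loci, 5 lone genes with candidates alone, those beside each limit and the 3 of widest spread. The looser B box word was added after seeing the data. Alternatives covered distances, summit definition, signal, replicate support and cluster distance. The dm3 lists were not used here, since no dm3 gene models were at hand. Of the genes counted, 1 is not reported here by name.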

Additional observations from a re-analysis of the deposited data

How the results depend on the processing

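Of 79 recomputed values, 58 stayed within 1.5 times a main count or inside the main interval of a share or median, and 21 moved. With a limit of 250 bp, pooled candidates fell to 55 genes, candidates in every replicate to 20 and optimal summits apart from coding TSSs to 3. Genes with an optimal summit fell from 15 to 10, which lies exactly on the bound of 1.5 times and so counts as unmoved. With 1000 bp, the counts were 33 genes with an optimal summit, 18 apart from coding TSSs, 133 pooled, 87 in every replicate, 23 loci and 10.7% of clustered genes. Where the peak interval had to overlap the gene, they were 7 genes, 2 apart, 45 pooled, 6 loci and 2.63% of lone genes. With the 2438 optimal peaks of highest signal, 6 genes, 2 apart, 6 loci and 1.40% of clustered genes were left. With as many peaks as the optimal list, 15 genes had a pooled candidate and 11 one in every replicate. The pooled list cut in this way is the optimal list itself, so the 15 repeats the main optimal count and is no separate check. A coding TSS limit of 250 bp left 10 genes apart. Added after seeing the data, a rule that the summits of highest signal in the 3 replicates lie within 100 bp of each other left 15 genes called in every replicate. Peak midpoints, first-base distances, cluster distances and a coding TSS limit of 1000 bp moved no value beyond these bounds. The midpoint is hardly a check, because nearly all peaks near tRNA genes were centred on their summit. Leaving out replicates 1, 2 and 3 in turn kept 3863, 3838 and 3937 optimal peaks, those supported by the remaining replicates. Genes with an optimal summit then numbered 11 to 14, those apart 4 to 5 and loci 10 to 12. The optimal list was not derived again and still came from all 3 replicates. The genes left therefore had to be among the 15, which is no separate check. Genes with candidates in every remaining replicate numbered 52 to 56. tRNA:Ala-TGC-2-1 was lost without replicate 1 or 2, and tRNA:Thr-AGT-1-4, tRNA:Trp-CCA-2-2 and tRNA:Gly-GCC-1-9 without replicate 2 or 3. No paired analysis was possible because there is 1 group and no test. The main limits are the unknown depth, no untagged group used here, summits shared by neighbouring genes, and fragments of 200 to 800 bp, longer than a tRNA gene, so that a summit near a gene does not place the protein on it.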
